A study of Mus musculus with 8 samples.

Results

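The genes described are 8 metabolic genes of the segment of mouse chromosome 16 (MMU16) that Ts65Dn mice carry in 3 copies: the purine synthesis enzyme Gart, the reductases Cryzl1, Cbr1 and Cbr3, the biotin ligase Hlcs, the glycosylphosphatidylinositol (GPI) enzyme subunit Pigp, the galactosyltransferase B3galt5 and the inositol transporter Slc5a3. They were chosen by name, each through probe sets annotated to exactly 1 gene symbol, with the probe set of highest mean over all 8 arrays. All 8 were measured, among 129 measured genes of the MMU16 segment and 19938 genes in all. The 4 Ts65Dn animals were males aged 5 months, a Down syndrome model with an extra marker chromosome, and the 4 wild-type (WT) animals were colony control males of the same age, of strain B6EiC3SnF1/J, a mixed B6 and C3H background. The marker chromosome also brings in 31 measured genes from the centromeric end of chromosome 17, so the groups do not differ in these 8 genes alone. Soleus, a slow postural muscle, was taken untreated in the basal state, and each mouse gave 1 Affymetrix array of log2 values made by RMA (robust multi-array average).

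These enzymes do not form 1 pathway. Gart is a single protein that catalyses several steps of de novo purine synthesis, the route that builds IMP, the precursor of AMP and GMP. Cbr1 and Cbr3 are cytosolic carbonyl reductases that use NADPH to reduce ketones, aldehydes and quinones, and Cryzl1 is named for its likeness to the quinone oxidoreductase zeta-crystallin. Hlcs attaches biotin to the carboxylases of fatty acid, amino acid and pyruvate metabolism. Pigp is a subunit of the enzyme that starts GPI anchors, the lipid tails that hold many proteins on the cell surface. B3galt5 adds galactose to glycan chains, and Slc5a3 brings myo-inositol into cells with sodium, which supplies phosphoinositides and serves as an osmolyte.

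The starts of 4 members lie within 1000 bases of the start of another measured trisomic gene, and their RefSeq promoter windows are shown for that reason. Each window runs from 250 bases before the start to 50 after it, on assembly GRCm38.p6, and is printed 5′ to 3′ on the gene's own strand. The Gart window is chr16:91646923-91647222 on the minus strand, with the start of Son on the other strand 852 bases away. The Cryzl1 window is chr16:91728753-91729052 on the minus strand, 569 bases from the start of Itsn1 on the other strand. The Pigp window shown, chr16:94370501-94370800 on the minus strand, is the one of its 4 that shares most with the window of Ttc3 on the other strand, 288 of its 300 bases. The Slc5a3 window, chr16:92058072-92058371 on the plus strand, shares 286 bases with that of Mrps6, which starts 14 bases away on the same strand. Capitals mark letters matched on either strand by the GC box GGGCGG, the CCAAT box CCAAT, the ETS site CCGGAAG or the E-box CACGTG.
Gart: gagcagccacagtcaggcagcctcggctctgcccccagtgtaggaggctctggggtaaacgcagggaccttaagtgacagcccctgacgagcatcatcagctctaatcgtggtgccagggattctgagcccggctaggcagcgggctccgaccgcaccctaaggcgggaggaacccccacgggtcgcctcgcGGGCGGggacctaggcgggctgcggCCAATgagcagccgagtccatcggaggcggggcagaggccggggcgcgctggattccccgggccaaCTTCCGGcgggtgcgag
Cryzl1: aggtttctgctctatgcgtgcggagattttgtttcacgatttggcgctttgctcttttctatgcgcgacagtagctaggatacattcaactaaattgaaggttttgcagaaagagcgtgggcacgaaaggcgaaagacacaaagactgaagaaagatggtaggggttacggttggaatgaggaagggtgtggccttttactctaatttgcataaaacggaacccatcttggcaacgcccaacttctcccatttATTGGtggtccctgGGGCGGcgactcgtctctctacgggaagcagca
Pigp: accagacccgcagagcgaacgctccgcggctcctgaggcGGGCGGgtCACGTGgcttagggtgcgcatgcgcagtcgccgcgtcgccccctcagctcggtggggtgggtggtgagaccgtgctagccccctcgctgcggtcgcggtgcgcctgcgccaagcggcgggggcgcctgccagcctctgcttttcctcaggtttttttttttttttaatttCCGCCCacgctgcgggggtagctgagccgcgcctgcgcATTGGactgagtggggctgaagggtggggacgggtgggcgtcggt
Slc5a3: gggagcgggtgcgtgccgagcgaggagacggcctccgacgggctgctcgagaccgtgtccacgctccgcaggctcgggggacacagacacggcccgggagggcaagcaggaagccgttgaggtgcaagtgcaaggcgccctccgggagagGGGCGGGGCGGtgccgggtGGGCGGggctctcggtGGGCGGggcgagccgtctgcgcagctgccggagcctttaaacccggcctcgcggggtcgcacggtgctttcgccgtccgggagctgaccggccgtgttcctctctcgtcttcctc

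The TATA box TATAAA and the antioxidant response element TGACNNNGC were searched too, on both strands and in all windows of the members. A GC box was present in a window of 6 members (Cbr3, Gart, Hlcs, Pigp, Slc5a3 and Cryzl1), and in 38.2% of the 27025 genes with a window. The Slc5a3 window holds 4 GC boxes, of which 2 overlap and are printed as 1 run of capitals. CCAAT was found for 5 members and in 41.1% of genes, and the ETS site for Gart and Hlcs and in 9.93% of genes. CACGTG was found for Pigp and B3galt5 (8.09% of genes), the antioxidant response element for B3galt5 (14.0% of genes), and TATAAA for 0 members (15.7% of genes). The window of Cbr1 was the lowest of the 8 genes in GC content, at 44.0%, and the Pigp window nearest to the start of Ttc3 the highest, at 75.3%. These matches describe letters in the windows and are not evidence of binding.

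A shift between the groups ran through the arrays as a whole and depended on the level. Array medians were 4.23 to 4.29 in Ts65Dn mice and 4.37 to 4.56 in WT mice. The interquartile range was 3.01 to 3.12 in Ts65Dn arrays and 2.62 to 2.93 in WT arrays, with WT arrays 2 and 3 the narrowest. For genes that are not trisomic the median log2 fold change was -0.22 at mean levels up to 5, against 0.09 from 5 to 7, 0.31 from 7 to 9 and 0.10 above 9. Intensity-matched values are therefore given beside the deposited ones: for every gene and array, the median deviation of the 100 non-trisomic genes closest in level was subtracted. The skeletal muscle markers, 10 of 10 measured, had a mean log2 level of 11.46 to 11.58 in Ts65Dn arrays and 11.39 to 11.48 in WT arrays. Of the marker lists of other cells, 3 held called genes. Endothelial markers (6 of 6 measured, 2 called higher) were at 5.89 to 6.18 in Ts65Dn arrays and 5.11 to 5.61 in WT arrays. Without the 2 called genes the groups overlapped, while the 4 other genes had a median log2 fold change of 0.56, with 3 positive and 1 negative. The 6 macrophage markers were at 4.68 to 5.27 in Ts65Dn arrays and 4.29 to 4.51 in WT arrays, with 1 called higher, Cd68, and without it the groups overlapped at 4.23 to 4.46 in Ts65Dn arrays and 4.07 to 4.29 in WT arrays. The 6 fibroblast markers were at 7.22 to 7.43 in Ts65Dn arrays and 6.87 to 7.14 in WT arrays, with 1 called higher and 2 of 6 negative. They overlapped without the called gene. Leaving out genes because they were called higher narrows the gap by construction, so these overlaps do not show that cell content was equal. Markers of adipocytes (6 of 7 measured), fast muscle fibres (7 of 7), Schwann cells (3 of 6) and erythroid cells (2 of 6) overlapped between the groups and had 0 called. Fast fibre markers were at 9.97 to 11.21 in Ts65Dn arrays and 9.86 to 10.22 in WT arrays. Ts65Dn array 4 was the highest, with Myh4 at 10.52 (6.76, 6.25 and 6.22 in Ts65Dn arrays 1 to 3) and Actn3 at 9.26 (7.76, 6.77 and 6.14). It was also the highest for Tnnt3, and within the range of the other arrays for Myh1, Tnni2, Pvalb and Atp2a1. What part these shifts have in the results was not tested, and in whole muscle a change in the number of cells of a type and in RNA per cell cannot be told apart.

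The comparison asked whether Ts65Dn muscle held more transcript of the 8 genes, and how their changes stood to the ratio of gene copies, which is 0.58 on the log2 scale for 3 copies over 2. Gart and Cryzl1 rose, with log2 fold changes of 0.58 and 0.67. The others, Cbr1, Cbr3, Hlcs, Pigp and Slc5a3, had positive log2 fold changes between 0.23 and 0.53 that did not pass, and B3galt5 had a negative one, -0.37, that did not pass either. By limma with Benjamini-Hochberg adjustment over all 19938 genes at a threshold of 0.05, 2 of 8 members were called higher and 0 lower, against 2.32% of all genes called higher and 2.94% called lower. In the rest of the MMU16 segment 19 of 121 genes were called higher and 3 lower. At an unadjusted p under 0.05, 3 members were higher and 1 lower, beside 12.3% and 22.6% of all genes. All called genes lay close to the threshold, since the smallest limma adjusted p of any gene was 0.0449, and 0 members passed with intensity matching or with WT arrays 2 and 3 left out.

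The median log2 fold change over the 8 members was 0.34, beside -0.10 over all genes tested and -0.04 over the other 121 MMU16 segment genes. With intensity matching it was 0.33 for the members, beside 0.00112 over all genes and 0.06 over the other segment genes. At or above the median level of all genes lay 5 of 8 members and 56 of the 121 other segment genes. There the median was 0.53 for members and 0.54 for the other segment genes in deposited values, and 0.26 and 0.40, in the same order, with intensity matching. Below that level the 3 members Cbr3, Slc5a3 and B3galt5 had a median of 0.23, and the 65 other segment genes one of -0.21. With intensity matching these medians were 0.50 for the 3 members and 0.00945 for the other segment genes, so the brighter members no longer had the higher median.

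**Figure D1:**
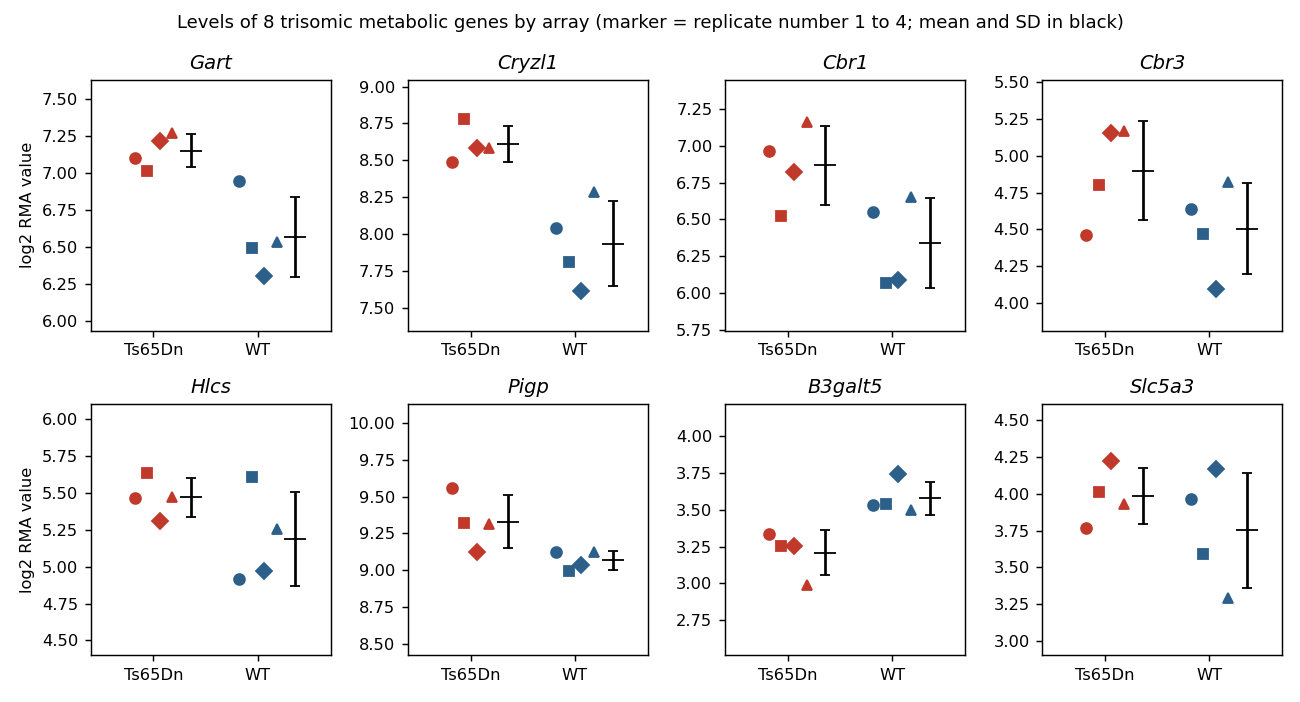
Log2 RMA value of each of the 8 genes in the 4 Ts65Dn and 4 WT arrays, on axes of equal span but different position, with the mean and SD of each group in black and the replicate number given by the marker shape. Gart and Cryzl1 are higher in all 4 Ts65Dn arrays than in any WT array, B3galt5 is lower in all 4, and the other 5 genes overlap between the groups.

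Gart, the purine synthesis enzyme, had log2 values of 7.11, 7.02, 7.22 and 7.27 in Ts65Dn replicates 1 to 4, against 6.95, 6.50, 6.30 and 6.53 in WT replicates 1 to 4. The groups did not overlap, and the closest pair were Ts65Dn array 2 and WT array 1. Gart averaged 7.15 ± 0.11 in Ts65Dn mice and 6.57 ± 0.27 in WT mice (log2, SD, n = 4 each), and so rose by 0.58, with a 95% interval of 0.25 to 0.91 (limma adjusted p = 0.0497). That corresponds to a 1.50-fold higher value, and the exact two-sided permutation p over the 70 splits of the arrays was 0.0286, the smallest that 4 against 4 can give. With intensity matching the log2 fold change was 0.26 (interval -0.01 to 0.54, limma adjusted p = 0.247) and the groups overlapped.

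Cryzl1, the quinone oxidoreductase relative, was at 8.49, 8.78, 8.59 and 8.58 in Ts65Dn arrays 1 to 4 and at 8.04, 7.81, 7.61 and 8.28 in WT arrays 1 to 4. Every Ts65Dn array was above every WT array, and the spread was smaller among Ts65Dn arrays (SD 0.12) than among WT arrays (SD 0.29). Cryzl1 rose by 0.67 on the log2 scale (95% interval 0.33 to 1.02, limma adjusted p = 0.0458, exact permutation p = 0.0286), or 1.60-fold. It was 0.45 with intensity matching (interval 0.20 to 0.69, limma adjusted p = 0.0785) and 0.45 without WT arrays 2 and 3, so that the call was lost in both. The annotated span of Cryzl1 overlaps 2 long non-coding RNA genes on the other strand. Of these Gm10785 was measured, and it was at 6.26 ± 0.14 in Ts65Dn mice and 7.02 ± 0.45 in WT mice (log2, SD, n = 4 each; log2 fold change -0.76, limma adjusted p = 0.0529), opposite in sign to Cryzl1.

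Cbr1, a carbonyl reductase, was at 6.96, 6.52, 6.82 and 7.16 in Ts65Dn arrays and at 6.55, 6.07, 6.09 and 6.65 in WT arrays, in replicate order. Of the 4 Ts65Dn arrays, 1, 3 and 4 lay above the WT range and array 2 lay within it. The log2 fold change of 0.53 (95% interval 0.13 to 0.93, limma adjusted p = 0.0800) did not pass, and it was 0.19 with intensity matching and 0.27 without WT arrays 2 and 3. Cbr3, its paralog and next measured gene on the chromosome, was at 4.47, 4.80, 5.16 and 5.17 in Ts65Dn arrays and at 4.64, 4.47, 4.10 and 4.82 in WT arrays. Ts65Dn arrays 3 and 4 were above the WT range, and Ts65Dn array 1 was below the WT mean. Cbr3 differed by 0.39 (95% interval -0.05 to 0.83, limma adjusted p = 0.181), and by 0.25 without WT array 3. Intensity matching moved Cbr1 down and Cbr3 up, to 0.59 (interval 0.10 to 1.08, limma adjusted p = 0.170).

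Hlcs, which couples biotin to carboxylases, was at 5.47, 5.63, 5.31 and 5.47 in Ts65Dn arrays and at 4.92, 5.61, 4.97 and 5.26 in WT arrays. Only Ts65Dn array 2 was above the WT range, because WT array 2 was nearly as high, while all 4 Ts65Dn arrays were above the WT mean. Hlcs differed by 0.28 (95% interval -0.08 to 0.64, limma adjusted p = 0.232), and 0.40 with intensity matching (limma adjusted p = 0.206).

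Pigp, the GPI enzyme subunit, was at 9.56, 9.32, 9.12 and 9.32 in Ts65Dn arrays and at 9.12, 8.99, 9.04 and 9.12 in WT arrays. Ts65Dn array 3 lay within the narrow WT range and the other 3 lay above it. The log2 fold change of 0.26 (95% interval -0.01 to 0.53, limma adjusted p = 0.157) had an interval that ended below 0.58. It was 0.02 with intensity matching (interval -0.27 to 0.31). Pigp alone among the members has 2 probe sets of its own symbol, and the second averaged 6.84 ± 0.03 in Ts65Dn mice and 6.70 ± 0.14 in WT mice (log2, SD, n = 4 each), a log2 fold change of 0.14 with an interval of -0.10 to 0.38.

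B3galt5, the galactosyltransferase, was at 3.34, 3.26, 3.26 and 2.99 in Ts65Dn arrays and at 3.53, 3.54, 3.74 and 3.50 in WT arrays. All 4 Ts65Dn arrays lay below the WT range. The log2 fold change of -0.37 (95% interval -0.64 to -0.10, limma adjusted p = 0.0740) did not pass. With intensity matching the groups overlapped and it was -0.12 (interval -0.37 to 0.12, limma adjusted p = 0.550). Lower values with separate groups were common in these data, at 15.9% of all genes.

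Slc5a3, the sodium and myo-inositol cotransporter, was at 3.77, 4.01, 4.22 and 3.93 in Ts65Dn arrays and at 3.96, 3.59, 4.17 and 3.29 in WT arrays. Ts65Dn array 3 lay above the WT range and the other 3 within it, while WT arrays 2 and 4 lay below every Ts65Dn array. Slc5a3 differed by 0.23 (95% interval -0.19 to 0.65, limma adjusted p = 0.390), and by 0.08 without WT array 4, 0.15 without Ts65Dn array 3 and 0.37 without WT array 3. With intensity matching all 4 Ts65Dn arrays (3.99 to 4.28) lay above the WT arrays (3.28 to 3.96), a difference of 0.50 (interval 0.13 to 0.88, limma adjusted p = 0.136). The deposited table holds no detection calls, so whether Slc5a3 and B3galt5, whose mean levels were 3.87 and 3.39, were above background was not assessed.

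Read together, 2 of 8 members had groups that did not overlap with Ts65Dn higher, against 6.81% of all genes. Of the other 121 MMU16 segment genes 28 did, so this is not particular to the members. The limma 95% interval is not adjusted for the number of genes. It held the 0.58 of the copy ratio for 29 of the other 121 segment genes and 23.0% of all genes. Among the members it did so for 6, all except Pigp and B3galt5. Among these 6, the intervals of Cbr3, Hlcs and Slc5a3 also held 0, so their data do not separate no change from a change by the ratio of copies. Those of Gart, Cryzl1 and Cbr1 held 0.58 and not 0. With intensity matching 4 intervals held 0.58, those of Cryzl1, Cbr3, Hlcs and Slc5a3, and none of these 4 held 0. Those of Gart (-0.01 to 0.54) and Cbr1 (-0.13 to 0.52) then held 0 and not 0.58, the reverse of the deposited values. In the order of log2 fold change within the 129 segment genes, Cryzl1 stood at rank 24, Gart at 29, Cbr1 at 31, Cbr3 at 38, Hlcs at 42, Pigp at 46, Slc5a3 at 50 and B3galt5 at 110. The intervals of Cryzl1 to Slc5a3 in this order overlap each other.

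**Figure D2:**
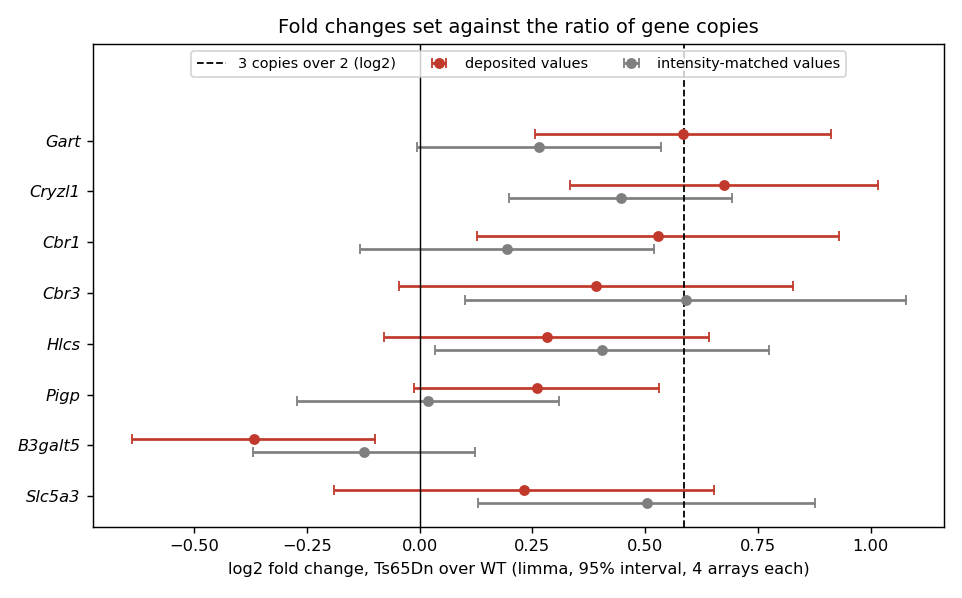
Log2 fold change of each gene in Ts65Dn over WT mice with its limma 95% interval (4 arrays in each group), from deposited values in red and intensity-matched values in grey. The solid line marks no change and the dashed line 0.58, the log2 ratio of 3 copies over 2, and the red intervals of all genes except Pigp and B3galt5 cross the dashed line.

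Genes that start beside a member had changes of their own, and 3 of the 4 partners rose. Son, an RNA-binding splicing protein that starts beside Gart, was at 7.70, 7.67, 7.57 and 7.50 in Ts65Dn arrays and at 7.22, 6.43, 6.18 and 6.88 in WT arrays (log2 fold change 0.93, limma adjusted p = 0.0456). Itsn1, an endocytic scaffold beside Cryzl1, was at 6.91 to 7.16 in Ts65Dn arrays and 5.88 to 6.44 in WT arrays (0.88, limma adjusted p = 0.0456). Ttc3, a ubiquitin ligase whose start lies beside that of Pigp, was at 9.30, 9.33, 9.31 and 9.43 in Ts65Dn arrays and at 8.48, 8.39, 7.47 and 8.43 in WT arrays (1.15, limma adjusted p = 0.0456). WT array 3 was the lowest array for all 3 of these partners. With intensity matching Itsn1 (0.62, limma adjusted p = 0.0449) and Ttc3 (0.91, limma adjusted p = 0.0449) still passed, and Son (0.66, limma adjusted p = 0.0692) did not. Mrps6, a protein of the mitochondrial ribosome that starts 14 bases from Slc5a3, was at 7.75 ± 0.06 in Ts65Dn mice and 7.66 ± 0.19 in WT mice (log2, SD, n = 4 each; 0.10, limma adjusted p = 0.584). The annotated spans of Slc5a3 and Mrps6 also overlap on the same strand, and those of Pigp and Ttc3 on opposite strands. Whether their probe sets read shared sequence was not assessed.

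Whether the 2 genes of a pair changed by different amounts was tested on their difference in each array, by exact two-sided permutation over 5 pairs, the fifth being Cbr1 and Cbr3. The pairs with nearby starts were chosen after their values were seen, so their p-values serve as description only. Ttc3 minus Pigp was 0.01 ± 0.19 in Ts65Dn arrays and -0.88 ± 0.46 in WT arrays (SD, n = 4 each), a difference in log2 fold change of 0.90 (exact permutation p = 0.0286, 0.143 after Benjamini-Hochberg adjustment over the 5 pairs, higher in 4 of 4 Ts65Dn arrays). The difference was 0.89 with intensity matching (adjusted p = 0.0714 by the same exact test). For Son minus Gart it was 0.35 (exact p = 0.114, adjusted 0.190) and for Itsn1 minus Cryzl1 0.21 (exact p = 0.0571, adjusted 0.143). Mrps6 minus Slc5a3 gave -0.14 (exact p = 0.686), and -0.69 with intensity matching (exact p = 0.0286, adjusted 0.0714). Cbr3 minus Cbr1 gave -0.14 (exact p = 0.657), and with intensity matching the sign turned, at 0.40 (exact p = 0.2, adjusted 0.2). None of the 5 passed 0.05 after adjustment. A single pair at the smallest p of the exact permutation test, 0.0286, adjusts to 0.143 over 5 pairs, so no pair could have passed alone, and the test says little about any one of them.

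**Figure D3:**
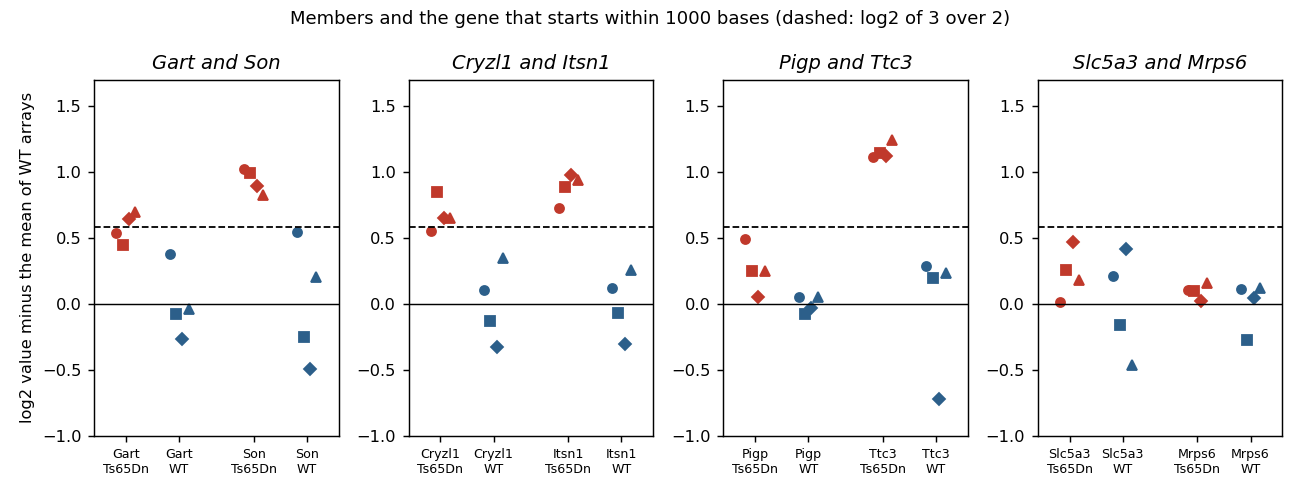
Log2 value minus the mean of the 4 WT arrays for 4 members and the gene that starts within 1000 bases of each, in Ts65Dn (red) and WT (blue) arrays, with the replicate number given by the marker shape and the dashed line at 0.58. All 4 Ts65Dn values of Ttc3 lie above those of Pigp, and Slc5a3 and Mrps6 overlap between the groups.

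The remaining measured genes next to the members on the chromosome differed in sign. Dnajc28, beside Gart, was higher (0.63, limma adjusted p = 0.0484), as was the transcription factor Sim2 beside Hlcs (0.86, limma adjusted p = 0.0449), and Igsf5, beside B3galt5, was lower by the same test (-0.56, limma adjusted p = 0.0493). Setd4 beside Cbr1 (-0.43), Dop1b beside Cbr3 (0.28), Ripply3 between Hlcs and Pigp (-0.06), Atp5o beside Slc5a3 (0.26) and Sh3bgr beside B3galt5 (0.38), all as log2 fold changes, did not pass. With intensity matching Dnajc28 (0.32, limma adjusted p = 0.223), Sim2 (0.59, limma adjusted p = 0.0530) and Igsf5 (-0.29, limma adjusted p = 0.161) did not pass either.

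Other genes of the members' pathways were taken from lists chosen by function, and the counts and medians below leave out the members, so that all of these genes lie outside the trisomic segments. Of the 5 other enzymes of de novo purine synthesis, 1 was called higher, Atic, and 1 lower, Pfas. Their median log2 fold change was 0.12, beside -0.10 over all genes. With intensity matching it was -0.10, beside 0.00112 over all genes, so this list did not stand above all genes there. Atic, which catalyses the last steps to IMP, was at 7.44 ± 0.18 in Ts65Dn mice and 6.74 ± 0.33 in WT mice (log2, SD, n = 4 each), so it rose by 0.70 (limma adjusted p = 0.0477). Pfas, which works on a product of Gart in the same route, was at 3.89 ± 0.19 in Ts65Dn mice and 4.64 ± 0.24 in WT mice (log2, SD, n = 4 each), so it fell by 0.75 (limma adjusted p = 0.0456). Neither passed with intensity matching, where Atic was at 0.30 (limma adjusted p = 0.212) and Pfas at -0.45 (limma adjusted p = 0.0973). Paics had a value of 0.16 with groups that did not overlap (limma adjusted p = 0.284).

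Of 14 measured genes of the AMP and GMP branches, purine salvage and deamination, 1 was called higher and 0 lower. It was Ampd3, an AMP deaminase, at 7.28 ± 0.14 in Ts65Dn mice and 6.33 ± 0.33 in WT mice (log2, SD, n = 4 each), a rise of 0.95 (limma adjusted p = 0.0456) that was 0.61 with intensity matching and did not pass there (limma adjusted p = 0.0651). Gmps, GMP synthetase, had a value of 0.75 (limma adjusted p = 0.0529) and Impdh1, which starts the GMP branch, one of -0.39 (limma adjusted p = 0.0699). Of 10 measured folate one-carbon genes, which supply the carbon units that Gart and Atic use, 1 was called higher, Mthfd1 (0.60, limma adjusted p = 0.0456), and 0 lower. With intensity matching Mthfd1 was at 0.64 and did not pass (limma adjusted p = 0.0530). Shmt2 (0.60, limma adjusted p = 0.0518) and Mtr (0.70, limma adjusted p = 0.0547) were just short of the threshold. The medians of these lists were 0.10 and 0.13, and 0.24 and 0.23, in the same order, with intensity matching.

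Among the 12 other carbonyl and quinone reductases measured 0 passed, and 6 had a positive and 6 a negative fold change. The median was -0.01, and -0.14 with intensity matching. At an unadjusted p under 0.05 in limma 3 were higher and 0 lower, beside 12.3% and 22.6% of all genes. The aldo-keto reductase Akr1b8 differed by 0.67 with groups that did not overlap (limma adjusted p = 0.0594), the quinone reductase Nqo2 by 0.61 (limma adjusted p = 0.100) and Akr1b10 by 0.46 (limma adjusted p = 0.142). Of the 8 other relatives of quinone oxidoreductase 0 passed in deposited values, with 3 higher and 1 lower at an unadjusted p under 0.05. Positive values were found for 6, with a median of 0.41 that was 0.18 with intensity matching. The lower gene, Zadh2, had groups that did not overlap (-0.31, limma adjusted p = 0.104). With intensity matching Zadh2 passed (-0.58, limma adjusted p = 0.0452), as 1 of 16 genes called lower there. Cryz, zeta-crystallin itself, was at 7.65 ± 0.16 in Ts65Dn mice and 7.18 ± 0.31 in WT mice (log2, SD, n = 4 each; 0.48, limma adjusted p = 0.0809), and Mecr (0.53) and Ptgr1 (0.50) did not pass either.

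Of the 9 other genes of biotin use, which hold the carboxylases that Hlcs loads, 0 passed in either direction. At an unadjusted p under 0.05 in limma 1 was higher and 1 lower, beside 12.3% and 22.6% of all genes. The median was 0.22, and -0.01 with intensity matching, where 4 of the 9 were positive. Acaca, the cytosolic acetyl-CoA carboxylase, differed by 0.73 (limma adjusted p = 0.0742), but WT array 1, at 6.11, lay above every Ts65Dn array (5.84 to 6.08). Its mitochondrial-surface relative Acacb differed by 0.25 (limma adjusted p = 0.145) and the biotin transporter Slc5a6 by -0.46 (limma adjusted p = 0.0879). Of the 6 other genes of the Pigp enzyme complex 0 passed, with 2 higher and 1 lower at an unadjusted p under 0.05. Their median was 0.30, and 0.18 with intensity matching. Pigc had a value of 0.42 (limma adjusted p = 0.109), Pigq 0.37 (limma adjusted p = 0.133) and Pigyl, listed for Pigy, -0.33 (limma adjusted p = 0.0954). Of 20 genes of later GPI anchor synthesis, with a median of 0.12 that was also 0.12 with intensity matching, 1 was called higher and 0 lower. It was Pigt, a subunit of the transamidase that attaches the anchor to proteins, at 6.54 ± 0.17 in Ts65Dn mice and 5.84 ± 0.21 in WT mice (log2, SD, n = 4 each; 0.70, limma adjusted p = 0.0456). With intensity matching Pigt was at 0.53 and did not pass (limma adjusted p = 0.0548). Pigx (0.59, limma adjusted p = 0.0564) and Pgap3 (-0.49, limma adjusted p = 0.0683) did not pass.

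Around Slc5a3, 0 of 11 other inositol genes and 0 of 7 other osmotic response genes passed in either direction. At an unadjusted p under 0.05 in limma, 3 inositol genes were higher and 2 lower, and 4 osmotic genes were higher and 1 lower. Of all genes 12.3% were higher and 22.6% lower at that threshold. Slc5a11, another sodium and myo-inositol cotransporter, was at 4.10 ± 0.16 in Ts65Dn mice and 4.65 ± 0.29 in WT mice (log2, SD, n = 4 each; -0.56, limma adjusted p = 0.0589), opposite in sign to Slc5a3. The inositol phosphatase Inpp1 differed by 0.66 (limma adjusted p = 0.0683) and Bpnt2 by 0.46 (limma adjusted p = 0.0957). Among osmotic genes the smallest p was that of Slc6a12, a betaine and GABA transporter, which differed by -0.49 (limma adjusted p = 0.0684). Nfat5, the transcription factor of the response to hypertonicity, differed by 0.71 (limma adjusted p = 0.0741). The amino acid transporter Slc38a2 was at 8.61 ± 0.50 in Ts65Dn mice and 7.61 ± 0.70 in WT mice (log2, SD, n = 4 each; limma adjusted p = 0.0780), and its log2 fold change without WT arrays 2 and 3 was 0.40. The medians were 0.21 for the inositol genes and 0.69 for the osmotic genes, and 0.19 and 0.34, in the same order, with intensity matching. Of 15 other glycosyltransferases related to B3galt5, 0 passed, 8 were positive and 7 negative, and the smallest p-values were those of B3galnt2 (0.57), B3gnt4 (-0.40) and B3gnt7 (-0.41).

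**Figure D4:**
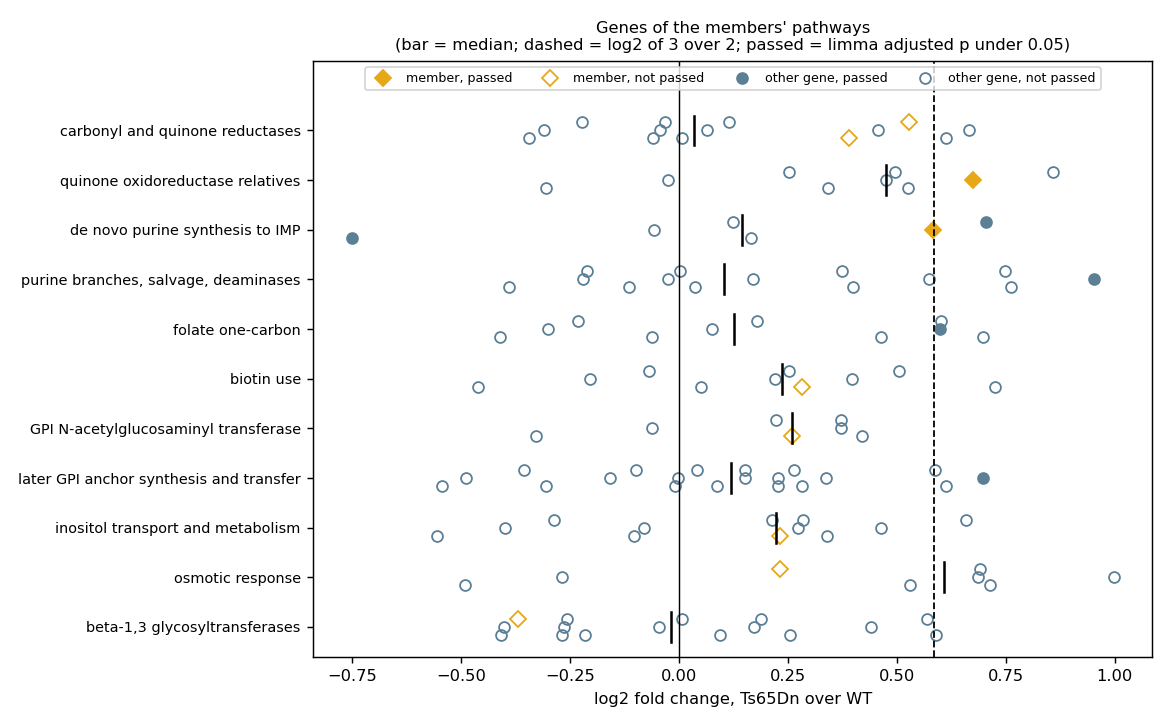
Log2 fold change in Ts65Dn over WT mice of each measured gene in 11 lists around the members, with diamonds for members, circles for other genes, filled symbols for genes past a limma adjusted p of 0.05 and a bar at each list's median, members included. Filled symbols are few, with Gart, Atic and Pfas in de novo purine synthesis and Cryzl1 among the quinone oxidoreductase relatives.

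Among themselves the members did not all vary together from array to array. After each group's mean was subtracted, Pearson's r over the 8 arrays ran from -0.79 to 0.65 over the 28 pairs of members. Of these pairs 14 were positive, which is a description of values that share arrays. Every pair among Cbr1, Cbr3, Gart and Cryzl1 was positive, with r from 0.36 to 0.65. Each of these genes was negatively related to B3galt5, with r from -0.79 to -0.47. They are named for their r, which was taken from deposited values and not with intensity matching. The deposited arrays differ in spread, and what part this has in r was not tested. The gene most like each member by the same measure, taken as the best of all genes and therefore high by choice, was Mbip for Cbr1 (r = 0.99), St3gal4 for Cbr3 (r = 0.98), Akirin1 for Gart (r = 0.98), Nipsnap2 for Cryzl1 (r = 0.99), Nudt11 for Pigp (r = 0.98), Tmem220 for Slc5a3 (r = 0.98), Trdv2-2 for B3galt5 (r = 0.98) and Pcdhb21 for Hlcs (r = 0.96). None of these lies in a trisomic segment.

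Across 19 processing alternatives the direction of Gart, Cryzl1, Cbr1, Hlcs and Pigp held in every one, and that of Cbr3, Slc5a3 and B3galt5 in all 18 in which they were tested. The log2 fold change of Gart ran from 0.26 to 0.79 and passed in 3 alternatives, and that of Cryzl1 ran from 0.44 to 0.88 and passed in 6. The other 6 members passed in none, with the smallest limma adjusted p at 0.0521 for Cbr1. The range was 0.19 to 0.73 for Cbr1, 0.17 to 0.64 for Cbr3, 0.19 to 0.48 for Hlcs, 0.02 to 0.46 for Pigp, 0.08 to 0.51 for Slc5a3 and -0.41 to -0.12 for B3galt5.

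**Figure D5:**
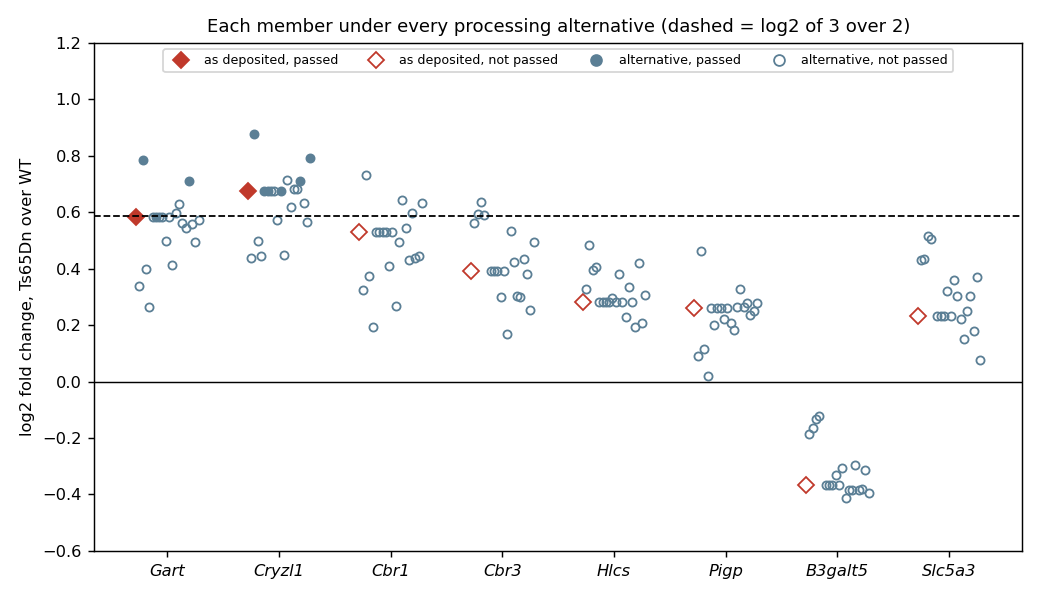
Log2 fold change of each gene in Ts65Dn over WT mice as deposited (red diamonds) and under each processing alternative (blue circles), filled where the limma adjusted p was under 0.05, with the dashed line at 0.58. No gene changes sign, and filled symbols occur for Gart and Cryzl1 alone.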

How the data were processed

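Soleus RNA of 4 Ts65Dn and 4 WT males was measured on 1 array per mouse. RMA in Affymetrix Expression Console 1.1 is named by the submitters' processing notes, and the labels call the analysis gene-level. RMA as commonly run subtracts background, equalises the arrays' distributions and gives 1 value per probe set. The deposited arrays were not equal in distribution, with medians of 4.23 to 4.56 and interquartile ranges of 2.62 to 3.12. Why they differ was not tested. The deposited values are on a log2 scale, as their range shows. The authors' genome build is not given in the sources used here, so RefSeq (GRCm38.p6) served for names, gene order and promoter windows only.

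Of 35556 probe sets 21789 had 1 gene symbol, which gave 19938 genes, each through its brightest probe set. The moderated test of limma 3.58.1 (lmFit, eBayes; R 4.3.3) compared the groups, two-sided and without a covariate, with Benjamini-Hochberg adjustment over all genes at 0.05. The procedure was checked on simulated data. Single differences were compared by exact permutation with scipy 1.17.1. The members, lists and alternatives were chosen with earlier results of these data known. Genes named are the members, their measured neighbours, in each list up to 3 other genes of smallest p, and the gene most like each member. Zadh2 is named beyond this rule because it passed with intensity matching. The pairs of genes with nearby starts, and the marker lists without their called genes, were chosen after their values were seen. List genes without a probe set of 1 symbol were not analysed here. Same-numbered arrays did not deviate together (correlations 0.01 to 0.09), so the numbers were not treated as pairs. The number of arrays limits the precision.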

Additional observations from a re-analysis of the deposited data

Results flagged for a closer look

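Of the 16 groups of 4 arrays checked (8 genes in each genotype), 1 held an array far from the others. For B3galt5, WT array 3 was at 3.743 on the log2 scale, and its gap to the nearest WT array was 0.849 of the group's range, above Dixon's critical value. Chance marks about 1 group in 20. B3galt5 was lower in all 4 Ts65Dn arrays than in any WT array, and without WT array 3 its log2 fold change was -0.31 (limma adjusted p = 0.147). WT array 3 had the narrowest interquartile range of the 8 arrays.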

How the results depend on the processing

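The count of members called higher, 2 in the deposited values, was 0 with quantile normalization repeated, cyclic loess, intensity matching, all probe sets adjusted together, array weights, or WT arrays 2 and 3 left out. It was 1 with genes below the median level removed and 1 with an intensity trend and robust estimation, and ran from 0 to 2 when single arrays were left out. It was 0 without Ts65Dn array 1, 2, 3 or 4 or WT array 2 or 3, 1 without WT array 4 and 2 without WT array 1. With the replicate number as a block it was 0, but the numbers do not pair the mice. The cause of these changes was not tested. The count of members with separate groups and Ts65Dn higher, 2, was 1 with quantile normalization repeated, and 2 to 3 when single arrays were left out. The median log2 fold change over the members, 0.34, was 0.54 under median centring of the arrays and 0.53 with genes below the median level removed, where 5 members remain, and 0.29 to 0.40 when single arrays were left out. The count of intervals that held 0.58, 6, was 4 to 7 over all alternatives and 5 to 7 when single arrays were left out. No member's fold change was reversed.

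Over all genes, 462 were called higher and 587 lower. The split was 951 and 57 under median centring, 117 and 18 with cyclic loess, 73 and 16 with intensity matching and 159 and 77 with array weights. It was 1 and 0 with quantile normalization repeated and without WT arrays 2 and 3, 0 and 0 with the replicate block, and between 0 and 1215 higher and 0 and 1650 lower when single arrays were left out. The median log2 fold change of all genes was 0.10 under median centring, beside -0.10 as deposited. The low level of Slc5a3, Cbr3 and B3galt5 limits what their values can show.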
